A study of Mus musculus with 3 samples.

Results

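Lyz1 and Lyz2 encode the lysozymes of the mouse, and they were followed here as 2 of the 32287 features counted in single-cell RNA libraries of injured mouse lung. Their raw UMI counts (unique molecular identifiers, 1 for each captured RNA molecule) were taken from barcodes with 500 or more detected genes and at most 15% mitochondrial UMIs, which left 3196 cells of Club-Tracer, 1402 of BASC-Tracer and 5859 cells of AT2-Tracer. Cells were assigned to classes by marker genes that did not include the lysozymes. All mice were Scgb1a1-CreER;Sftpc-DreER;R26-TLR, with CreER driven by the club cell gene Scgb1a1, DreER driven by the alveolar type 2 (AT2) cell gene Sftpc and a dual fluorescent reporter, and all had received bleomycin, a drug that injures the alveolar epithelium, 4 weeks earlier. The libraries differed in the sorted colour: Club-Tracer cells carried tdTomato alone, BASC-Tracer cells carried both ZsGreen and tdTomato, and AT2-Tracer cells carried ZsGreen alone. There was 1 library per group, no uninjured library was analysed here, and the labels do not give the number of animals behind each library. Comparisons are therefore of single libraries, with no replicate check and no p-value.

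Lysozyme is a secreted enzyme that cuts the peptidoglycan of bacterial cell walls. The mouse carries a duplicated gene: Lyz2, also called lysozyme M, is a common marker of macrophages and neutrophils and is also made by AT2 cells, the surfactant-producing cells of the alveolus, while Lyz1, also called lysozyme P, is best known from the Paneth cells of the intestine. AT2 cells release lysozyme onto the alveolar surface, where it adds to the defence against inhaled bacteria.

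The genes are neighbours on the minus strand of chromosome 10 of mouse genome build GRCm38, the build that the UCSC browser calls mm10. Lyz1 (ENSMUSG00000069515) lies at chr10:117287797-117292868 and Lyz2 (ENSMUSG00000069516) at chr10:117277331-117282321, with 5475 bases between them. Both are protein-coding genes with 4 exons, 1 annotated transcript and a coding length of 148 codons in GENCODE M21. The libraries read the 5′ ends of transcripts. The coding sequence starts close to that end, after 30 bases of the Lyz1 transcript and 79 bases of the Lyz2 transcript. The coding part of exon 1 is therefore shown for both, at chr10:117292703-117292838 for Lyz1 and at chr10:117282107-117282242 for Lyz2. Both are on the minus strand, 5′ to 3′ and starting at the start codon. Capitals mark the bases that differ between the copies.
Lyz1: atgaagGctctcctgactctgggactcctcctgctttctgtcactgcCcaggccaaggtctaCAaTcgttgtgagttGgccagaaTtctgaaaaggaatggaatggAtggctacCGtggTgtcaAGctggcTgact
Lyz2: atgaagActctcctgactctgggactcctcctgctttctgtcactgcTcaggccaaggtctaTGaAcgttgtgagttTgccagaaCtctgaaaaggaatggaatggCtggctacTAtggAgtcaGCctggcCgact

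These 136 bases differ at 14 positions (89.7% identity), and the whole coding sequence of 444 bases differs at 22 positions. The transcripts share no stretch of 150 bases, the labelled read length, and the longest run they share is 118 bases. Of all windows of 90 bases in the Lyz1 transcript, 3.75% also occur in the Lyz2 transcript, so some short alignments could be split between the copies. That share is over the whole transcript. The longest shared run lies at bases 306 to 423 of the Lyz1 transcript, and the share over the bases that 5′ reads cover was not computed. The labels do not say how such reads were counted, and their part in the levels was not tested. In the classes rich in Lyz2, Lyz1 made up 0.0406% of lysozyme UMIs in alveolar macrophages of AT2-Tracer (73 Lyz1 UMIs beside 179736 of Lyz2) and 0.300% in C1q macrophages, values that say nothing of Lyz1 reads counted as Lyz2 or of reads that were dropped.

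The kept cells had median totals of 15406 UMIs in the Club-Tracer, 15222 in the BASC-Tracer and 9682 in the AT2-Tracer library. Shared barcode sequences between libraries numbered 6 to 23 per pair among kept cells. The labels call the cells lung epithelial cells, but 1688 of the AT2-Tracer cells (28.8%), 96 of the BASC-Tracer cells (6.85%) and 7 of the Club-Tracer cells (0.219%) carried macrophage and leukocyte markers. ZsGFP stood at 151 CPM (a gene's UMIs scaled by the UMI total of the same cells) in AT2-Tracer macrophages, against 7260 CPM in AT2 cells of the same library. AT2 cells were those in which Sftpc alone, and the sum of 9 other AT2 markers, each reached a set level per 10000 UMIs of the cell, with limits on markers of other classes. In them the 10 AT2 markers together held 147732 CPM in the Club-Tracer, 136717 CPM in the BASC-Tracer and 145184 CPM in the AT2-Tracer library. The 5 pan-leukocyte markers summed to between 1.76 and 10.4 CPM. Both sums follow from the limits set and are not a check on the class. Scgb1a1 was not limited. The 6 club markers, Scgb1a1 among them, held 37465 CPM in Club-Tracer, 7887 CPM in BASC-Tracer and 73.2 CPM in AT2-Tracer AT2 cells. Levels are CPM of UMIs summed over the cells of a class; a UMI counts a molecule by its 5′ end, so Lyz1 and Lyz2 levels can be set side by side without a length correction. Intervals are exact 95% intervals that cover counting error only, not variation between animals or between cells.

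Lyz2 was a gene of AT2 cells and macrophages alike, while Lyz1 was highest in AT2 cells by a wide margin. In the AT2-Tracer library, Lyz2 stood at 21811 CPM in alveolar macrophages (825 cells), 21088 CPM in macrophages high in complement C1q (744 cells) and 10649 CPM in AT2 cells (1632 cells). In AT1 cells, the flat gas-exchange cells of the alveolus, Lyz2 stood at 211 CPM (596 cells), and in cells high in the transitional genes Krt8, Cldn4 and their partners it stood at 228 CPM (454 cells). Lyz1 in the same library stood at 460.1 CPM in AT2 cells, 63.3 CPM in C1q macrophages, 8.86 CPM in alveolar macrophages, 6.17 CPM in AT1 cells and 3.87 CPM in transitional cells. The order of the classes was thus not the same for both genes. Lyz2 was 2.05 times as high in alveolar macrophages as in AT2 cells (95% interval 2.04 to 2.06), whereas Lyz1 was 51.9 times as high in AT2 cells as in alveolar macrophages (41.3 to 66.3). The interval of Lyz1 in alveolar macrophages (6.94 to 11.1 CPM) overlapped that in AT1 cells (4.10 to 8.91 CPM), so those neighbours in the order were not distinguishable at this depth.

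**Figure D1:**
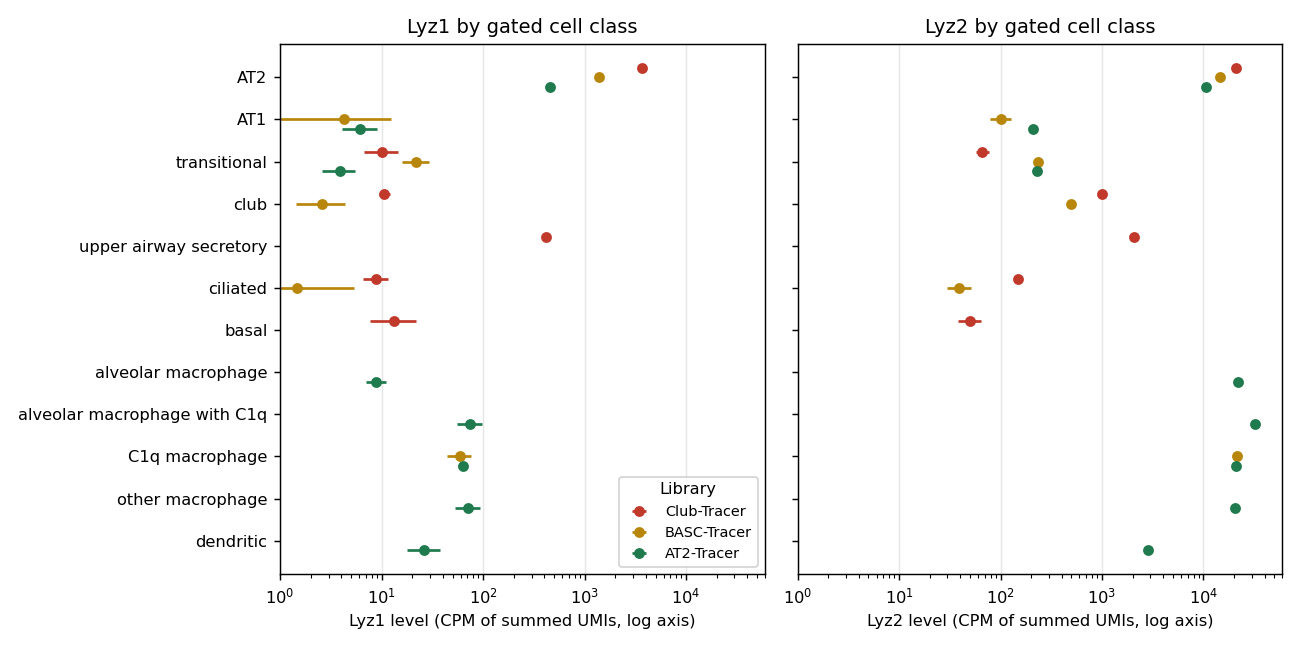
Levels of Lyz1 (left) and Lyz2 (right) by gated cell class and library, as CPM of summed UMIs on a log axis, for classes of 50 or more cells; bars are exact Poisson 95% intervals. Lyz1 peaks in AT2 cells of all 3 libraries, between 460.1 and 3669 CPM, and Lyz2 is above 10000 CPM in both AT2 cells and macrophages.

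Both lysozymes were higher in AT2 cells of the Club-Tracer and BASC-Tracer libraries than in those of the AT2-Tracer library, Lyz1 by more, but the Lyz1 excess of BASC-Tracer was seen in cells above 30000 UMIs and not in shallower ones. Both comparisons share the AT2-Tracer cells. Lyz1 stood at 3669 CPM in 422 Club-Tracer AT2 cells, 1392 CPM in 321 BASC-Tracer AT2 cells and 460.1 CPM in 1632 AT2-Tracer AT2 cells. Lyz2 stood at 20889.7 CPM in Club-Tracer, 14403 CPM in BASC-Tracer and 10649 CPM in AT2-Tracer AT2 cells. Lyz1 was 7.97 times as high in the Club-Tracer as in the AT2-Tracer cells (95% interval 7.82 to 8.13), and Lyz2 was 1.96 times as high (1.95 to 1.97). Both genes were thus above the AT2-Tracer level here, with an excess of Lyz1 that was several times that of Lyz2. In the BASC-Tracer cells Lyz1 was 3.03 times (2.95 to 3.10) and Lyz2 1.35 times (1.34 to 1.36) the AT2-Tracer level. On the log2(CPM + 5) scale, the Lyz1 difference was 2.98 for Club-Tracer and 1.59 for BASC-Tracer, and 9 and 14 other genes at 50 CPM or more lay higher in these comparisons. For Lyz2 the log2 differences were 0.97 and 0.44, with 63 and 143 genes above it. The median over all such genes was -0.13 for Club-Tracer (2930 genes) and -0.0035 for BASC-Tracer (3010 genes). Among genes with 50 CPM or more, a 2-fold or larger excess was seen for 2.05% in Club-Tracer and 1.1% in BASC-Tracer AT2 cells, and a 2-fold or larger deficit for 3.24% and 0.498%. Lyz1 was among the genes in excess in both comparisons and Lyz2 in neither, although scaling by the median ratio over genes moved the Club-Tracer value of Lyz2 to 2.23.

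The BASC-Tracer value of Lyz1 rested on few cells. A single cell with 3910 Lyz1 UMIs among 43250 UMIs held 29.0% of all Lyz1 UMIs of BASC-Tracer AT2 cells, and without the richest cell of each library the ratio to AT2-Tracer was 2.27 in place of 3.03. The richest cell held 7.09% of the Lyz1 UMIs in Club-Tracer and 4.93% in AT2-Tracer AT2 cells. In AT2 cells of 10000 to 30000 UMIs, a band chosen after the data were seen because depth differed between libraries, Lyz1 stood at 2156 CPM in 224 Club-Tracer cells, 238 CPM in 135 BASC-Tracer cells and 498 CPM in 1048 AT2-Tracer cells. Within that band the Club-Tracer ratio was 4.32 and the BASC-Tracer ratio turned round, to 0.478. The Lyz1 excess of the BASC-Tracer library lay in AT2 cells above 30000 UMIs, where Lyz1 stood at 1881 CPM in 157 BASC-Tracer cells and 349.9 CPM in 177 AT2-Tracer cells. Lyz2 in the band stood at 20199 CPM in Club-Tracer, 12565 CPM in BASC-Tracer and 11973 CPM in AT2-Tracer cells, which brought its ratios to 1.69 and 1.05. The part that depth plays in these differences was not tested.

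Across AT2 cells the lysozymes were distributed in different ways. Lyz2 was seen in nearly all AT2 cells: in Club-Tracer in 96.9% with a median of 178 UMIs per 10000, in BASC-Tracer in 96.9% with a median of 91.9, and in AT2-Tracer in 97.0% with a median of 81.7. Between the tenth and the ninetieth percentile of cells, Lyz2 ran over 2.46 to 445 UMIs per 10000 in Club-Tracer, 2.59 to 305 in BASC-Tracer and 2.81 to 233 in AT2-Tracer AT2 cells. Lyz1 had a median of 0 in each library, and was seen in 41.5% of the AT2 cells from Club-Tracer, 19.0% from BASC-Tracer and 17.1% from AT2-Tracer. Most of the cells with Lyz1 held a trace of it and a few held very much, up to 1035 UMIs per 10000 in Club-Tracer, 904 in BASC-Tracer and 290.5 in AT2-Tracer. Of the Lyz1 UMIs, 50% lay in 13 AT2 cells of Club-Tracer, 3 of BASC-Tracer and 19 in AT2-Tracer, whereas 50% of the Lyz2 UMIs took 74, 46 and 258 cells.

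**Figure D2:**
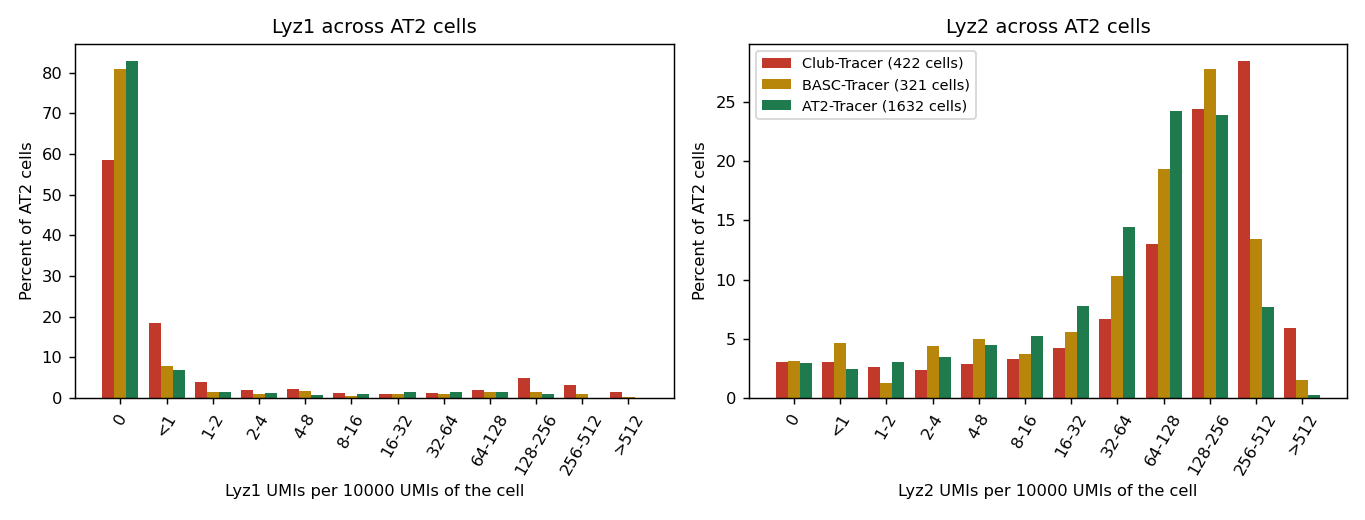
Percent of AT2 cells in each bin of Lyz1 (left) and Lyz2 (right) UMIs per 10000 UMIs of the cell, by library. Lyz1 has its largest bin at 0, with a small second group at high levels, while Lyz2 spreads around one broad peak that lies furthest right in Club-Tracer cells.

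At or above 16 Lyz1 UMIs per 10000, a level set after the distribution had been seen, there were 58 of 422 Club-Tracer AT2 cells (13.7%, exact 95% interval 10.6 to 17.4%), 20 of 321 BASC-Tracer cells (6.23%, 3.85 to 9.46%) and 89 of 1632 AT2-Tracer cells (5.45%, 4.40 to 6.67%). These Lyz1-rich cells are a range of a continuous measure and not a cell type, and within a factor of 2 of the limit lay 9 cells of Club-Tracer, 5 of BASC-Tracer and 40 in AT2-Tracer. They held 98.6% of the Lyz1 UMIs of Club-Tracer AT2 cells, 98.4% in BASC-Tracer and 94.7% in AT2-Tracer. The share was higher in the Club-Tracer library at each of the limits tried, from 1 UMI per 10000 upward, and the BASC-Tracer and AT2-Tracer intervals overlapped at each of them. In the band of 10000 to 30000 UMIs the Lyz1-rich cells were 25 of 224 in Club-Tracer (11.2%, 7.35 to 16.03%), 3 of 135 in BASC-Tracer (2.22%, 0.461 to 6.36%) and 60 of 1048 in AT2-Tracer (5.73%, 4.40 to 7.31%), so that the Club-Tracer interval lay above the others there too. Within the Lyz1-rich cells, which were chosen by Lyz1, the summed level was 23512 CPM in Club-Tracer, 19249 CPM in BASC-Tracer and 7411 CPM in AT2-Tracer. Their median Lyz1 per 10000 was 191, 115 and 50.8 in the same order. In BASC-Tracer their Lyz1 ran from 2 to 3910 UMIs per cell, so the sum leans on few cells. In the remaining AT2 cells Lyz1 stood at 59.3 CPM in Club-Tracer, 24.1 CPM in BASC-Tracer and 26.1 CPM in AT2-Tracer.

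**Figure D3:**
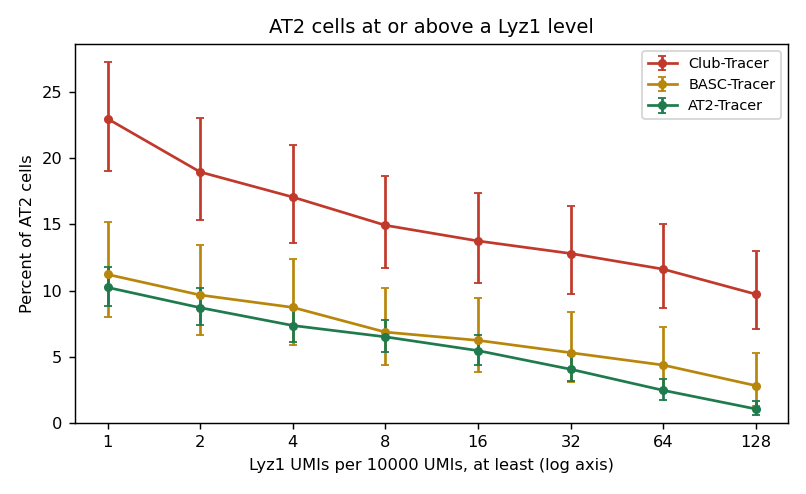
Percent of AT2 cells at or above a given Lyz1 level, in UMIs per 10000 UMIs of the cell on a log axis, by library; bars are exact Clopper-Pearson 95% intervals. Club-Tracer cells lie above the others at every level, from 23.0% at 1 UMI per 10000 to 9.72% at the highest level drawn.

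The Lyz2 level of Lyz1-rich cells differed from that of other AT2 cells in no common direction. As summed UMIs, Lyz2 stood at 15308 CPM in the Lyz1-rich Club-Tracer AT2 cells, against 21905 CPM in the rest of that class. In BASC-Tracer it stood at 11254 CPM in the Lyz1-rich cells, against 14645 CPM in the rest. In AT2-Tracer it stood at 10969 CPM in the Lyz1-rich cells, against 10629 CPM in the rest. The median cell had 135 Lyz2 UMIs per 10000 among the Lyz1-rich and 190.3 among the rest in Club-Tracer, 106 and 91.5 in BASC-Tracer, and 97.4 and 80.7 in AT2-Tracer. Sums and medians thus ran the same way in Club-Tracer and AT2-Tracer and opposite ways in BASC-Tracer, where the Lyz1-rich cells were 20. Lyz1 UMIs outnumbered Lyz2 UMIs in 41 of the 58 Lyz1-rich Club-Tracer cells, 13 of the 20 in BASC-Tracer and 32 of the 89 in AT2-Tracer. Lyz1 was 60.6%, 63.1% and 40.3% of all lysozyme UMIs in those cells of the 3 libraries, against 0.270%, 0.164% and 0.245% in the remaining AT2 cells. The cells were split by their Lyz1 level, so these counts and shares follow largely from the split. Ranked over AT2 cells thinned to 5000 UMIs each, Lyz1 and Lyz2 had a Spearman rho of -0.15 in 391 Club-Tracer, 0.02 in 307 BASC-Tracer and 0.01 in 1461 AT2-Tracer cells, values too weak to read a relation from in sparse counts that share a library.

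**Figure D4:**
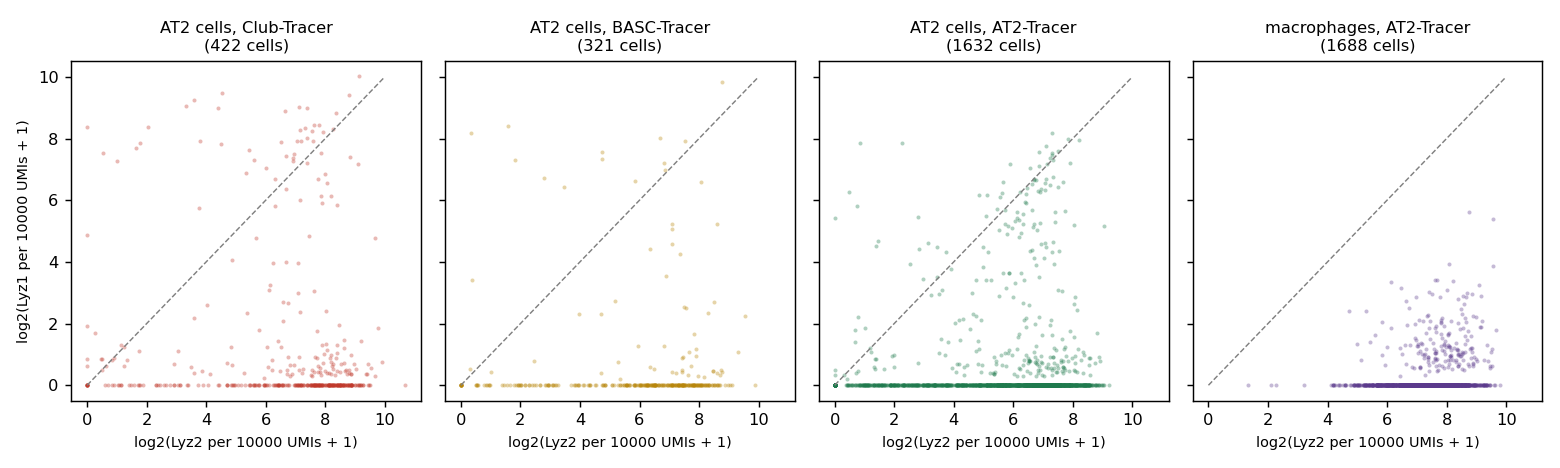
Each point is a cell: Lyz1 against Lyz2 in AT2 cells of the 3 libraries and in AT2-Tracer macrophages, both axes as log2(UMIs per 10000 UMIs of the cell + 1), with a dashed line where the genes are equal. Lyz1-rich cells lie on both sides of the line in AT2 cells, and none of the 1688 macrophages lies above it.

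Other markers were compared between the Lyz1-rich and the remaining AT2 cells as medians per 10000 UMIs. Sftpc, the surfactant protein gene that was also used to define the class, had a median of 1027 in Lyz1-rich Club-Tracer cells against 815 in the rest, 1043 against 772 in BASC-Tracer, and 1091 against 908 in AT2-Tracer. Scgb1a1, which encodes the main secreted protein of club cells, had a median of 124 in Lyz1-rich Club-Tracer cells against 94.1 in the rest, 43.7 against 9.36 in BASC-Tracer, and 0 in both groups of AT2-Tracer. As summed UMIs it ran the other way in Club-Tracer, at 22973 CPM in the Lyz1-rich cells against 39190 CPM in the rest, while in BASC-Tracer it stood at 11724 CPM against 7189 CPM. The other club markers together had medians of 5.23 against 5.70 in Club-Tracer and 2.95 against 1.88 in BASC-Tracer, so no direction for club markers held over both measures and both libraries. Leukocyte and macrophage markers were held low by the gate in all AT2 cells and are not compared. The lineage reporter tdT stood at 1337 CPM in Lyz1-rich Club-Tracer cells against 1251 CPM in the rest, and at 1346 CPM against 1652 CPM in BASC-Tracer.

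The share of AT2 cells with at least 1 UMI of both genes was 40.3% in Club-Tracer (170 of 422, exact 95% interval 35.6 to 45.1%), 19.0% in BASC-Tracer (61 of 321, 14.9 to 23.7%) and 16.9% in AT2-Tracer (276 of 1632, 15.1 to 18.8%). Median totals of these cells were 24976, 29812 and 16915 UMIs. Thinned to 5000 UMIs per cell, the shares with both were 23.3% in Club-Tracer (19.2 to 27.8%), 11.7% in BASC-Tracer (8.35 to 15.9%) and 11.3% in AT2-Tracer (9.72 to 13.0%), after 31, 14 and 171 shallower cells were left out. The Club-Tracer share remained above the others, and the BASC-Tracer and AT2-Tracer intervals overlapped. Joint detection followed Lyz1, since Lyz2 was seen in 97.1% of Club-Tracer AT2 cells with Lyz1 and in 96.8% of those without it. Only 5 Club-Tracer, 0 BASC-Tracer and 3 AT2-Tracer AT2 cells had Lyz1 without Lyz2. In ciliated cells, which are not known as a source of lysozyme, both were seen in 5.58% of 430 Club-Tracer cells (median 11525 UMIs), 2.74% of 73 BASC-Tracer cells (14558 UMIs) and 5.56% of 18 AT2-Tracer cells (6749 UMIs). Thinned to 5000 UMIs, both were seen in 2.14% of 374 ciliated Club-Tracer cells and in 0 of 66 BASC-Tracer cells (exact 95% interval 0 to 5.44%). The AT2 shares thus lay above the level in ciliated cells of the Club-Tracer and BASC-Tracer libraries, while AT2-Tracer had too few ciliated cells for a close comparison.

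**Figure D5:**
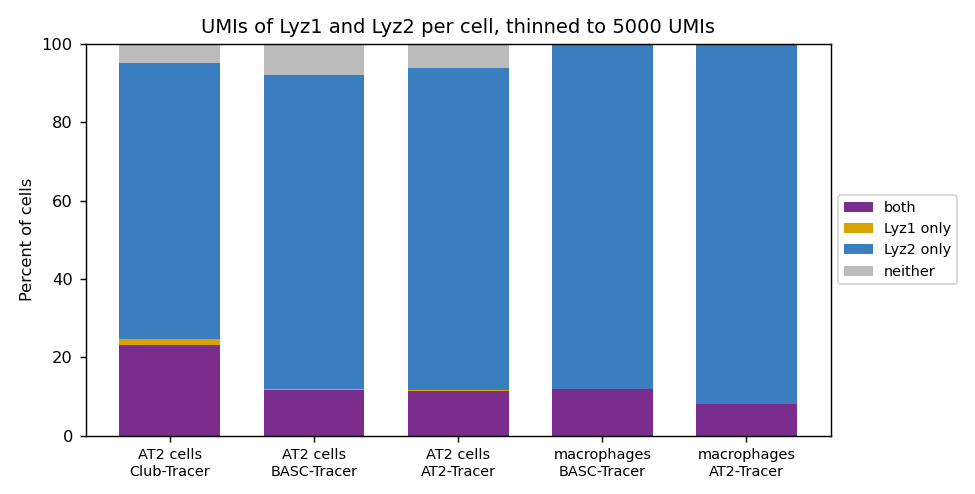
Percent of AT2 cells and of macrophages with UMIs of both lysozymes, of Lyz1 alone, of Lyz2 alone or of neither, after each cell was thinned to 5000 UMIs. Both genes were seen in 23.3% (Club-Tracer), 11.7% (BASC-Tracer) and 11.3% (AT2-Tracer) of AT2 cells, and in 11.8% of BASC-Tracer and 8.14% of AT2-Tracer macrophages.

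Dividing AT2 cells, marked by Mki67, Top2a, Birc5, Cenpf and Cdk1, held less Lyz2 per UMI in each library. Lyz2 stood at 6947 CPM in 15 cycling Club-Tracer AT2 cells, against 21378 CPM in 407 that were not cycling. In BASC-Tracer it stood at 4859 CPM in 15 cycling cells, against 14885 CPM in 306 that were not. In AT2-Tracer it stood at 6535 CPM in 93 cycling cells, against 10925 CPM in 1539 that were not. The direction was the same in all 3 libraries. Lyz1-rich cells numbered 2 of 15, 0 of 15 and 3 of 93 among cycling AT2 cells, against 13.8%, 6.54% and 5.59% of those not cycling in Club-Tracer, BASC-Tracer and AT2-Tracer. Median depths of cycling and other AT2 cells were 24648 and 25068 UMIs in Club-Tracer, 25029 and 29918 UMIs in BASC-Tracer, and 17756 and 16853 UMIs in AT2-Tracer.

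Macrophages had Lyz2 without exception and Lyz1 as a trace. All 96 BASC-Tracer and all 1688 AT2-Tracer macrophages had Lyz2, at 20960.3 CPM and 21912 CPM. Lyz1 was seen in 12 of the BASC-Tracer macrophages (12.5%, 6.63 to 20.8%) and in 193 of the AT2-Tracer macrophages (11.4%, 9.95 to 13.0%), so these are also the shares with both genes. Of the 193 AT2-Tracer macrophages with Lyz1, 132 had a single Lyz1 UMI, 9 had 10 or more and the highest had 74. No macrophage had more Lyz1 than Lyz2. In AT1 cells of the AT2-Tracer library, both genes were seen in 2.85% of 596 cells (median 6236 UMIs).

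The trace of Lyz1 differed between macrophage classes. Thinned to 5000 UMIs, Lyz1 was seen together with Lyz2 in 10.6% of 529 C1q macrophages (8.10 to 13.5%), 4.42% of 701 alveolar macrophages (3.02 to 6.22%) and 2.19% of 365 AT1 cells (0.951 to 4.27%) of the AT2-Tracer library. The interval of alveolar macrophages overlapped that of AT1 cells, and that of C1q macrophages lay above both. Such cells were not particular to the C1q class. The share was 19.6% of 56 macrophages with both alveolar and C1q markers (10.2 to 32.4%). It was 24.4% of 41 macrophages that reached neither marker level (12.4 to 40.3%), a class with Lyz1 at 71.6 CPM in 52 cells before thinning. As a level, Lyz1 was 7.15 times as high in C1q macrophages as in alveolar macrophages (5.55 to 9.32), while Lyz2 was 0.967 times as high (0.960 to 0.974). Of the 374 Lyz1 UMIs of C1q macrophages, 2 cells at or above 16 per 10000 held 32.6%. In BASC-Tracer, C1q macrophages had 58.7 CPM of Lyz1 (84 cells) and 21440.5 CPM of Lyz2, which were 0.927 (0.687 to 1.23) and 1.02 (1.00 to 1.03) times the AT2-Tracer levels. The 67 AT2-Tracer macrophages with both alveolar and C1q markers had the highest Lyz2 of the macrophage classes with 50 or more cells, at 31899 CPM, with Lyz1 at 74.9 CPM.

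Macrophages with Lyz1 were deeper and richer in Lyz2 than those without it. Lyz2 stood at 34185 CPM in the 12 BASC-Tracer macrophages with Lyz1, against 17894 CPM in the 84 without. In AT2-Tracer it stood at 29826 CPM in those with Lyz1, against 20536 CPM in those without. Median totals were 10251 UMIs in AT2-Tracer macrophages with Lyz1 and 7987 UMIs in those without, so detection and depth moved together, and their part was not tested. The median Sftpc level was 4.10 UMIs per 10000 in AT2-Tracer macrophages with Lyz1 and 5.11 in those without, a median that says little of the 9 cells with 10 or more Lyz1 UMIs; the part of AT2 RNA in macrophage Lyz1 was not tested.

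Dendritic cells, which present antigen, held less Lyz2 than macrophages. In 115 AT2-Tracer dendritic cells Lyz2 stood at 2853 CPM and Lyz1 at 26.4 CPM, and 1 cell held 83.9% of the Lyz1 UMIs. Neutrophils, a known source of Lyz2, were not gated as a class.

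Airway cells had low lysozyme with a few exceptions. Club cells, the secretory cells of the small airways, had Lyz2 at 995 CPM in Club-Tracer (909 cells) and 499 CPM in BASC-Tracer (162 cells), a ratio of 1.99 (1.92 to 2.08). Lyz1 stood at 10.7 and 2.60 CPM in those cells. The median club cell had 0.48 Lyz2 UMIs per 10000 in Club-Tracer and 0.18 in BASC-Tracer, and 9.57% of Club-Tracer club cells, those at or above 16 per 10000, held 90.1% of the class's Lyz2 UMIs. Lyz2 in club cells was thus a matter of a minority of cells too. It stood at 6.74 times the ciliated level in Club-Tracer (6.30 to 7.21) and 12.7 times in BASC-Tracer (9.68 to 17.0), where ciliated cells had 148 and 39.3 CPM. Lyz1 in club cells was not distinguishable from the ciliated level, at 1.21 times in Club-Tracer (0.894 to 1.67). The 186 upper airway secretory cells of Club-Tracer, high in Scgb3a1 and Bpifa1, had 416 CPM of Lyz1 and 2058 CPM of Lyz2, and 3 of these cells held 91.5% of the Lyz1. Epithelial cells that met no class gate had Lyz1 at 347 CPM in Club-Tracer (723 cells), 66.3 CPM in BASC-Tracer (329 cells) and 101 CPM in AT2-Tracer (700 cells), again mostly in few cells: 13 of the Club-Tracer cells held 93.7%. The 99 Club-Tracer cells past the AT2 limits and rich in club markers as well had Lyz1 at 2588 CPM, a level that also rested on few cells. Of these, 8 cells at or above 16 per 10000 held 97.5% of the Lyz1 UMIs. The ninetieth percentile of the 99 cells was 12.1 Lyz1 UMIs per 10000, while the highest cell had 625. The 73 BASC-Tracer cells of the same class had Lyz1 at 69.2 CPM. Median totals of this class were 8431 UMIs in Club-Tracer and 1551 UMIs in BASC-Tracer. In shallow cells a few UMIs can reach 16 per 10000, and the levels of this class are not compared between libraries.

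Alveolar cells outside the AT2 state had little of either gene. Lyz2 in transitional cells stood at 66.1 CPM in Club-Tracer (122 cells), 236 CPM in BASC-Tracer (72 cells) and 228 CPM in AT2-Tracer (454 cells). The Club-Tracer level was 0.290 times that of AT2-Tracer (0.248 to 0.337), the opposite of the direction in AT2 cells, while BASC-Tracer was 1.04 times (0.933 to 1.15). Few cells carried much of it: 6 of the AT2-Tracer cells, at or above 16 Lyz2 UMIs per 10000, held 54.6% of the Lyz2 UMIs, against 65.6% in 3 BASC-Tracer cells and 8.95% in 1 Club-Tracer cell. Without such cells, left out after the data were seen, Lyz2 stood at 60.4 CPM in Club-Tracer, 84.5 CPM in BASC-Tracer and 104 CPM in AT2-Tracer, and the ratios were 0.580 (0.489 to 0.684) and 0.811 (0.679 to 0.964). Lyz1 stood at 10.1, 21.9 and 3.87 CPM in transitional cells of the 3 libraries, from 29, 42 and 30 UMIs. In AT1 cells Lyz2 stood at 101 CPM in BASC-Tracer (63 cells) and 211 CPM in AT2-Tracer, a ratio of 0.481 (0.373 to 0.612). In ciliated cells, set beside them as a class not known for lysozyme, Lyz2 had an interval of 29.4 to 51.4 CPM in BASC-Tracer, below that of AT1 cells (79.3 to 127.7 CPM) and of transitional cells (215 to 259 CPM) of that library. In AT2-Tracer the ciliated interval of 139 to 278 CPM took in both levels. In Club-Tracer the ciliated interval of 138 to 158 CPM lay above that of transitional cells (57.0 to 76.2 CPM). It lay inside that of the 41 Club-Tracer AT1 cells (91.1 to 174 CPM). Barcodes with under 500 genes, which were left out, had Lyz2 at 2531 CPM in Club-Tracer, 3730 CPM in BASC-Tracer and 5758 CPM in AT2-Tracer. In lymphocytes and endothelial cells pooled as a background, Lyz2 stood at 876 CPM in 23 Club-Tracer cells and 1097 CPM in 12 BASC-Tracer cells. It stood at 280 CPM in 10 AT2-Tracer cells, from 10 UMIs. The Club-Tracer and BASC-Tracer values were above the AT1 and transitional levels of the same library. For AT2-Tracer, 10 UMIs are too few to set the value apart from those levels. Lymphocytes alone had lower Lyz2 than the pool in each library. It stood at 254 CPM in 19 Club-Tracer cells (145 to 413) and 424 CPM in 8 BASC-Tracer cells (232 to 711). In 4 AT2-Tracer lymphocytes it stood at 149 CPM (18.0 to 538), from 2 UMIs. The part of free RNA in the low levels was not tested.

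The genes whose levels followed each lysozyme most closely were ranked over 25 sums of a class in a library with 50 or more cells, from 14 classes, among 6474 genes, by Pearson r of log2(CPM + 5). The sums share libraries, depth and any free RNA, so r is a description. For Lyz2 the highest were Soat1, which esterifies cholesterol (r = 0.88), Cd302, a lectin receptor (0.82), the peptidase gene Anpep (0.81), Tnfsf13, which encodes the cytokine APRIL (0.80), and Fkbp2 (0.78). Soat1, for example, stood at 269 CPM in AT2 cells, 181 CPM in alveolar macrophages and 53.9 CPM in AT1 cells of AT2-Tracer, with Lyz2 high in the first pair of classes and low in the last. For Lyz1 the highest were Fam102b (0.77), the transcriptional coregulator gene Cited2 (0.76), Lrg1 (0.74), Sftpc (0.74) and the transcription factor gene Cebpa (0.72). Fam102b stood at 230.2 CPM in Club-Tracer, 171 CPM in BASC-Tracer and 54.0 CPM in AT2-Tracer AT2 cells, the order that Lyz1 showed. These sums were part of the ranking that chose it. Cited2 had the same order, while Lrg1 ran the other way, at 1063, 1350 and 2165 CPM. Sftpc and Cebpa had neither order. Lyz1 and Lyz2 correlated with each other at 0.66 over the same sums.

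Genes were also ranked with each lysozyme cell by cell, among AT2 cells thinned to 5000 UMIs. Over 2352 genes, the mean Spearman rho over the 3 libraries with Lyz2 was highest for Sftpc (0.47), Sftpa1 (0.43), Cxcl15 (0.42), Lcn2 (0.40) and Chil1 (0.37), of which Sftpc, Sftpa1 and Cxcl15 were among the markers of the gate. It was lowest for S100a6 (-0.40), the keratin gene Krt7 (-0.36), the adhesion gene Icam1 (-0.33), S100a11 (-0.32) and Sparc (-0.29). Each of these 10 values had the same sign in every library, for Lcn2 at 0.29 in Club-Tracer, 0.39 in BASC-Tracer and 0.50 in AT2-Tracer. With Lyz1 the highest mean rho was 0.11, for Sftpa1, and the lowest -0.11, for Itm2a, too weak to be read in sparse counts.

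No other lysozyme gene was seen at a comparable level. Of 8 family members and relatives (Lyzl1, Lyzl4, Lyzl6, Spaca3, Spaca5, Lalba, Lyg1 and Lyg2), 0 reached 50 CPM in AT2 cells, 7 had under 10 UMIs in the kept cells of each library, and Lyzl1 and Lyg2 had none. Lyzl4 had the most, with 8 UMIs in Club-Tracer, 4 in BASC-Tracer and 14 in AT2-Tracer cells. Of 10 other defence genes, 6 reached 50 CPM in AT2 cells, of which 1 was at least 2-fold higher and 0 were at least 2-fold lower in each comparison, beside 2.05% higher and 3.24% lower of all genes for Club-Tracer and 1.1% and 0.498% for BASC-Tracer. Their median log2 difference was 0.05 for Club-Tracer and -0.11 for BASC-Tracer, beside -0.13 and -0.0035 over all genes. The higher one was Pglyrp1, which encodes a protein that binds bacterial peptidoglycan, the substrate of lysozyme. It stood at 126 CPM in Club-Tracer, 78.6 CPM in BASC-Tracer and 29.7 CPM in AT2-Tracer AT2 cells (log2 differences 1.91 and 1.27). Being under 50 CPM in AT2-Tracer, Pglyrp1 entered the count only through the libraries where it was high. Wfdc2, a secreted protease inhibitor gene, had log2 differences of 0.97 and 0.42, close to those of Lyz2. Lcn2, which encodes a protein that binds bacterial siderophores, stood at 2768 CPM in Club-Tracer, 3056 CPM in BASC-Tracer and 4134 CPM in AT2-Tracer AT2 cells (-0.58 and -0.44), and Sftpd, a collectin of the surfactant, at 2983, 3023 and 3836 CPM (-0.36 and -0.34).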

How the data were processed

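The deposited values are raw UMI counts by gene and barcode, written by Cell Ranger per the file headers. Version 6.1.1 and build mm10 come from the submitters' processing notes. Libraries used 5′ chemistry and 150-base paired reads, per the labels' protocols. No source used here gives the annotation release. Barcodes with under 500 genes (1872 in Club-Tracer, 959 in BASC-Tracer, 2686 in AT2-Tracer), then those over 15% mt- UMIs (236, 78 and 339), were left out. Cells were gated by UMIs of marker groups per 10000 UMIs. AT2 cells needed Sftpc and 9 further AT2 markers at 128 or more each, with leukocyte and macrophage markers each under 4. They also needed AT1 markers under 128 and ciliated and upper airway markers under 64. The 5 club markers other than Scgb1a1 had to be under 32, and Scgb1a1 itself was not limited. Macrophages needed leukocyte and macrophage markers at 16 or more each, and alveolar or C1q markers at 64 or 32 for their classes. Gates that bar markers of other classes were the only doublet removal; Scrublet in scanpy 1.11.5 was an alternative.

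The lists and members were chosen with earlier results of these data known, and gate levels were set from marker distributions. Levels are CPM of summed UMIs with exact Poisson intervals, ratios carry exact conditional intervals, and shares exact Clopper-Pearson intervals, all at 95%. For a count of 0 the interval runs from 0 to its exact upper limit. The scripts were tested on simulated data. Log2 differences used a pseudocount of 5 CPM, with 2-fold as a size and not a test. The named-genes rule gave the 5 genes with the highest r over class sums, and the 5 highest and 5 lowest by mean rho in AT2 cells among genes seen in 20% or more of thinned cells in every library. Both ranks left out reporters and sex-linked, mt-, Rik, predicted, hemoglobin, antigen receptor and ribosomal protein genes. Every member of the family and defence lists was counted. Alternatives were the filters on genes and mt- UMIs, the gate, doublets, the scaling, free RNA, the detection limit and thinning. Endothelial cells, planned as background with lymphocytes, were nearly absent, so ciliated and AT1 cells were set beside the shares. Calculations used Python 3.11.15, numpy 2.4.6, scipy 1.17.1, pandas 2.3.3 and matplotlib 3.10.9. Sequences were read from GENCODE M21 on GRCm38.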

Additional observations from a re-analysis of the deposited data

How the results depend on the processing

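No paired analysis was possible because each group is 1 library and the labels give no replicate numbers. Of 85 alternative values for the AT2 ratios to AT2-Tracer and the shares with both genes, 49 stayed within the interval of the reported value, 35 left it in the same direction and 1 reversed; none tests variation between animals. Lyz1, Club-Tracer (reported 7.97), was 7.82 with a stricter gate, 7.70 by mean over cells, 9.05 with median ratio scaling, 8.29 without drivers, lysozymes and reporters in the total, and 7.82 without the richest cell. Lyz1, BASC-Tracer (3.03), was 2.39 by mean over cells, 2.91 with free RNA subtracted and 2.27 without the richest cell. Lyz2, Club-Tracer (1.96), was 1.86 with a stricter gate, 1.94 without Scrublet calls, 2.01 by mean over cells, 2.23 with median ratio scaling, 2.04 with the smaller total and 1.93 with free RNA subtracted. Lyz2, BASC-Tracer (1.35), was 1.33 without Scrublet calls, 1.29 by mean over cells and 1.28 with free RNA subtracted. Leaving out the richest cell and the band of 10000 to 30000 UMIs were chosen after seeing the data. In that band Lyz1 was 4.32 (Club-Tracer) and 0.478 (BASC-Tracer, reversed), Lyz2 was 1.69 and 1.05, and the AT2 shares with both genes were 34.4% in Club-Tracer, 12.6% in BASC-Tracer and 17.9% in AT2-Tracer, so BASC-Tracer fell below AT2-Tracer; the cause was not tested. Without transitional cells at or above 16 Lyz2 UMIs per 10000, also chosen after seeing the data, the Lyz2 ratio of transitional cells was 0.580 in place of 0.290 for Club-Tracer and 0.811 in place of 1.04 for BASC-Tracer, a reversal of a value whose interval held 1. With 2 or more UMIs required, the AT2 shares were 24.2%, 11.8% and 10.1% in Club-Tracer, BASC-Tracer and AT2-Tracer, and the AT2-Tracer macrophage share 3.61%. Thinned to 5000 UMIs the AT2 shares were 23.3%, 11.7% and 11.3%, and the AT2-Tracer macrophage share 8.14%; thinned to 1500 UMIs they were 17.5%, 6.67% and 7.91%, with macrophages at 5.32% in BASC-Tracer and 3.47% in AT2-Tracer. These limits remove UMIs by construction. Genes 2-fold apart numbered 155 for Club-Tracer and 48 for BASC-Tracer at 50 CPM, 266 and 84 at 20 CPM, and 84 and 26 at 100 CPM.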
